A study of Homo sapiens with 8 samples.

Results

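The epidermal growth factor (EGF) receptor family of Kyse510 cells was described from 10 genes chosen by name among the 34164 genes listed in the deposited tables. They were 3 receptors (EGFR, ERBB2 and ERBB3), 6 ligands (AREG, EREG, EPGN, BTC, HBEGF and TGFA) and LRIG1, a membrane protein that restrains the receptors. All 10 genes were listed in all 8 libraries. Kyse510 is an established cell line from human esophageal squamous cell carcinoma (ESCC), and RNA from each of 8 cultures was read in pairs of 150 bases on an Illumina instrument, 1 library for each condition. In the inhibitor experiment, parental cells were given vehicle alone, or were kept for 2 days with SP2509 at 7 µM, with UNC0642 at 7 µM, or with both compounds. The sample labels give no time for vehicle. SP2509 blocks LSD1, the histone demethylase that KDM1A encodes, and UNC0642 blocks G9a, the histone methyltransferase that EHMT2 encodes. The doses within the combination are not spelled out. In the knockdown experiment, cells carrying a doxycycline- (Dox-) inducible hairpin against LSD1 (sh-LSD1) or G9a (sh-G9a) were selected with puromycin for 14 days, and each line was sequenced without Dox and after 2 days of Dox. The description of the series speaks of stable clones. No library of cells given Dox without a targeting hairpin was analysed here, so the effects of Dox itself, of off-target silencing and of the knockdown cannot be told apart.

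EGF-like ligands are made as membrane-anchored precursors, are released by metalloproteases such as ADAM17, and bind the extracellular part of a receptor, which then pairs with another family member and signals to the RAS-ERK and PI3K-AKT pathways. AREG, EREG, EPGN, HBEGF, TGFA and BTC all bind EGFR. ERBB2 has no known ligand and acts as a partner, and ERBB3, which binds neuregulins, has a weak kinase and recruits PI3K once paired. In squamous epithelium, EGFR is typically highest in the basal, dividing cells, and the pathway is fed by ligands that the keratinocytes make themselves. LRIG1 promotes the breakdown of the receptors and is well known from epithelial stem cells.

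The values are FPKM, that is fragments counted on a gene, scaled to its length and to the depth of the library. Whole reads were recovered from the steps of these values, with library totals from 15662035 to 17889466 reads. A gene is called up or down here when (FPKM + 1) of the treated library differed from that of its own control by a factor of 1.3 or more, and either library held 1 FPKM or more of it. Log2 fold changes are on the same (FPKM + 1) scale, which understates the change of low genes, whereas ratios are of FPKM itself. Each ratio is given with an exact 95% interval from the reads, which covers counting error only. Since no condition was sequenced again, the spread between replicates is unknown, no difference between conditions was tested, and the words rose and fell describe a called difference between 2 libraries. Fewer cells of a kind and less RNA per cell cannot be told apart in such bulk RNA. KDM1A went from 26.0 to 6.29 FPKM with Dox in the sh-LSD1 line, from 26.4 to 35.8 FPKM in the sh-G9a line, and stood at 32.0 to 40.7 FPKM in the inhibitor libraries. EHMT2 went with Dox from 7.85 to 4.76 FPKM in the sh-G9a line and from 7.998 to 7.97 FPKM in the sh-LSD1 line. In the inhibitor libraries it stood at 11.1 FPKM with vehicle, 10.2 with SP2509 and 10.3 with UNC0642. With both inhibitors it was called down, at 5.38 FPKM. Of 9 squamous epithelial markers, 7 were at 1 FPKM or more in all 8 libraries, and KRT6A and SOX2 dropped below it in at least 1. The summed FPKM of 6 mesenchymal markers was 3.23 to 6.96, with COL1A1 at 2.92 to 5.36 and COL3A1 reaching 1.501 with SP2509, and the other 4 stayed below 1. That of 3 endothelial markers was 3.56 to 14.5, with CDH5 at 3.28 to 14.0, VWF reaching 1.42 in the sh-G9a line with Dox, and PECAM1 below 1. That of the immune markers was 0.0365 to 2.73, with CD14 reaching 2.67 in the sh-LSD1 line with Dox and PTPRC at 0.0425 at most. All 4 glandular markers stayed below 1 FPKM. Across the genes at 5 FPKM or more in both libraries, the median log2 fold change was -0.09 with SP2509, -0.00 with UNC0642, 0.04 with both inhibitors, 0.11 with Dox in the sh-LSD1 line and 0.14 with Dox in the sh-G9a line.

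**Figure D1:**
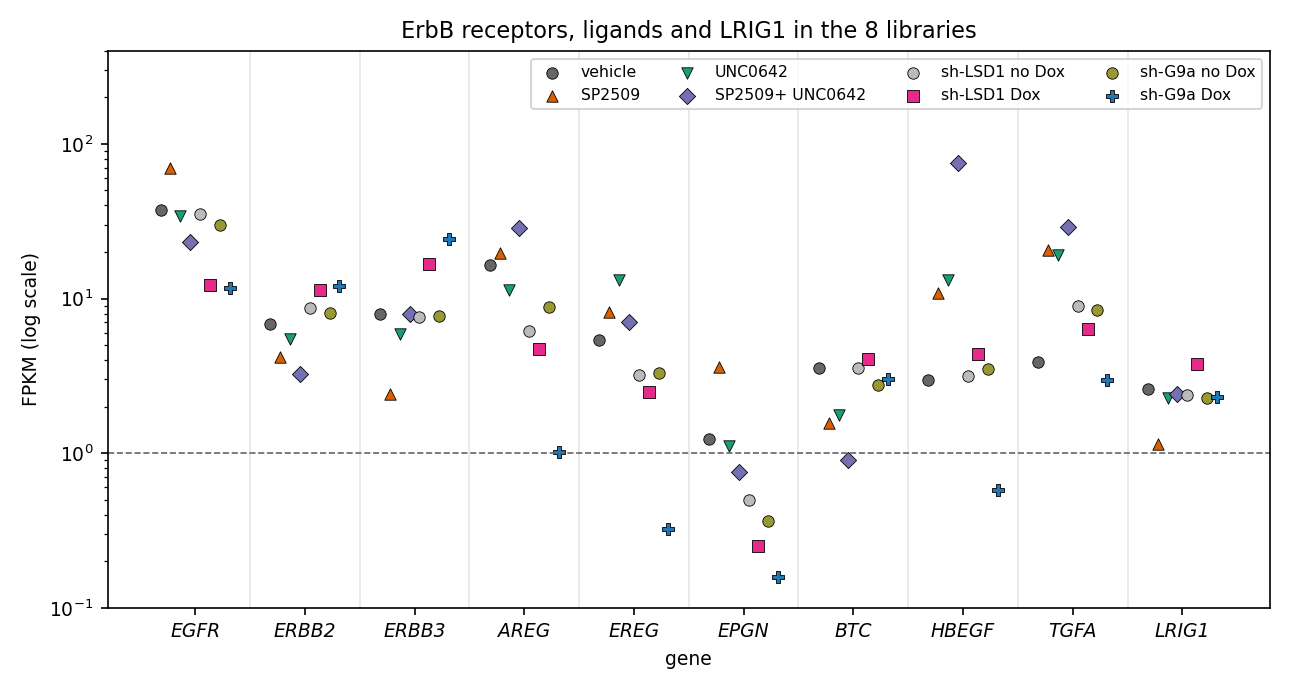
FPKM (log axis) of the 10 genes in each of the 8 libraries, 1 point per library, with the filter of 1 FPKM as a dashed line. EGFR ran from 11.8 to 70.3 FPKM, HBEGF from 0.574 to 75.0 FPKM, and EPGN was the lowest of the 10 genes in every library but that of SP2509, where LRIG1 was.

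EGFR (ENSG00000146648, chromosome 7 from 55019021 to 55211628, plus strand) was the most abundant receptor in all 4 inhibitor libraries and in both uninduced lines. It stood at 37.1 FPKM in vehicle-treated cells, 70.3 under SP2509, 34.1 under UNC0642 and 23.0 under the combination. In the sh-LSD1 line it was at 35.1 FPKM without and 12.3 with Dox, and in the sh-G9a line at 29.99 without and 11.8 with Dox. The 3 controls thus lay close together, SP2509 alone was the high library, and both Dox libraries were the low ones. EGFR rose with SP2509 to 1.89 times vehicle (95% interval 1.84 to 1.95), a log2 fold change of 0.90. It fell with both inhibitors to 0.621 times vehicle (0.599 to 0.644). With UNC0642 alone it was not called, at a ratio of 0.920 (0.890 to 0.9497). Dox was accompanied by a fall to 0.350 (0.335 to 0.366) in the sh-LSD1 line and to 0.393 (0.375 to 0.411) in the sh-G9a line, log2 fold changes of -1.44 and -1.28. EGFR-AS1, an antisense gene within EGFR, was at 0.148 to 2.52 FPKM in the inhibitor libraries and at 0.0206 to 0.1004 FPKM in the knockdown libraries. The strand setting of the read counting is not given in the sources used here, so reads of the 2 genes cannot be told apart where they overlap.

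ERBB3 (ENSG00000065361, chromosome 12, ending at 56103505, plus strand) moved opposite to EGFR in the libraries where EGFR moved most. It had 7.94 FPKM in vehicle-treated cells, 2.40 under SP2509, 5.89 under UNC0642 and 7.999 under the combination. In the knockdown table it had 7.62 FPKM without and 16.8 with Dox in the sh-LSD1 line, and 7.75 without and 24.2 with Dox in the sh-G9a line. The SP2509 library was the lowest of the inhibitor table, and both Dox libraries lay above the uninduced libraries of the knockdown table. ERBB3 fell with SP2509 to 0.302 times vehicle (95% interval 0.268 to 0.340), a log2 fold change of -1.40. It rose with Dox to 2.20 times (2.06 to 2.36) in the sh-LSD1 line and to 3.13 times (2.93 to 3.34) in the sh-G9a line. With both inhibitors the ratio to vehicle was 1.01 (0.926 to 1.095), and with UNC0642 it was 0.742 (0.679 to 0.811), which the pseudocount left just short of a call. The tables give this gene different starts, 56079857 for the inhibitors and 56076799 for the knockdowns, and the recovered lengths were 8658 and 9039 bases, so its levels were compared within a table.

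ERBB2 (ENSG00000141736, chromosome 17 from 39687914 to 39730426, plus strand) followed ERBB3 in the knockdowns and with SP2509, on a smaller scale. Its levels were 6.79 FPKM in vehicle-treated cells, 4.21 under SP2509, 5.49 under UNC0642 and 3.27 under the combination. The sh-LSD1 line gave 8.66 FPKM without and 11.4 with Dox, and the sh-G9a line 8.09 without and 12.1 with Dox. All 3 libraries with an inhibitor were below vehicle, and both Dox libraries were above their controls. ERBB2 fell with SP2509 to 0.620 times vehicle (95% interval 0.565 to 0.680) and with both inhibitors to 0.481 times (0.434 to 0.533). In the sh-G9a line it rose to 1.496 times (1.40 to 1.60). The value in the sh-LSD1 line, a ratio of 1.32 (1.24 to 1.41) and a log2 fold change of 0.36, was just under the threshold. Its neighbours MIEN1 and PGAP3, which overlap its ends on the other strand, were between 1.32 and 6.64 FPKM.

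The summed level of the 3 receptors was 51.8 FPKM in vehicle-treated cells, 76.9 under SP2509, 45.5 under UNC0642 and 34.3 under the combination. It was 51.3 and 40.5 FPKM in the sh-LSD1 line without and with Dox, and 45.8 and 48.1 FPKM in the sh-G9a line. EGFR made up 71.6% of this sum in vehicle-treated cells, 91.4% under SP2509, 75.0% under UNC0642 and 67.2% under the combination. Its share went from 68.3% to 30.4% in the sh-LSD1 line and from 65.4% to 24.5% in the sh-G9a line. ERBB3 supplied 50.4% of the receptor sum in the sh-G9a line with Dox and 41.4% in the sh-LSD1 line with Dox, and was the most abundant of the 3 receptors in both. The ratio of EGFR to ERBB3 was accordingly 29.3 with SP2509, between 2.88 and 5.78 in the other inhibitor libraries and the uninduced lines, and 0.733 and 0.486 in the sh-LSD1 and sh-G9a lines with Dox. The summed FPKM of the 9 squamous markers was 1084 in vehicle-treated cells, 4874 under SP2509, 1454 under UNC0642 and 1078 under the combination, and went from 2187 to 599.6 and from 2021 to 733 with Dox in the sh-LSD1 and sh-G9a lines. The sum was mostly KRT17, a keratin, in the libraries with an inhibitor and in the uninduced lines. KRT17 went from 324 to 3716 FPKM with SP2509. With Dox it went from 1737 to 265 FPKM in the sh-LSD1 line and from 1596 to 158 FPKM in the sh-G9a line. In the sh-G9a line this fall exceeded that of the sum. Members of the squamous list differed in direction. SOX2, a squamous lineage factor, went from 18.3 to 0.313 FPKM with SP2509, and with Dox from 5.24 to 20.1 FPKM in the sh-LSD1 line and from 5.99 to 38.8 FPKM in the sh-G9a line. KRT5, a basal keratin, went from 427 to 734 FPKM with SP2509, from 188 to 74.6 FPKM in the sh-LSD1 line and from 177 to 312 FPKM in the sh-G9a line. The part of these markers in the receptor values was not tested.

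**Figure D2:**
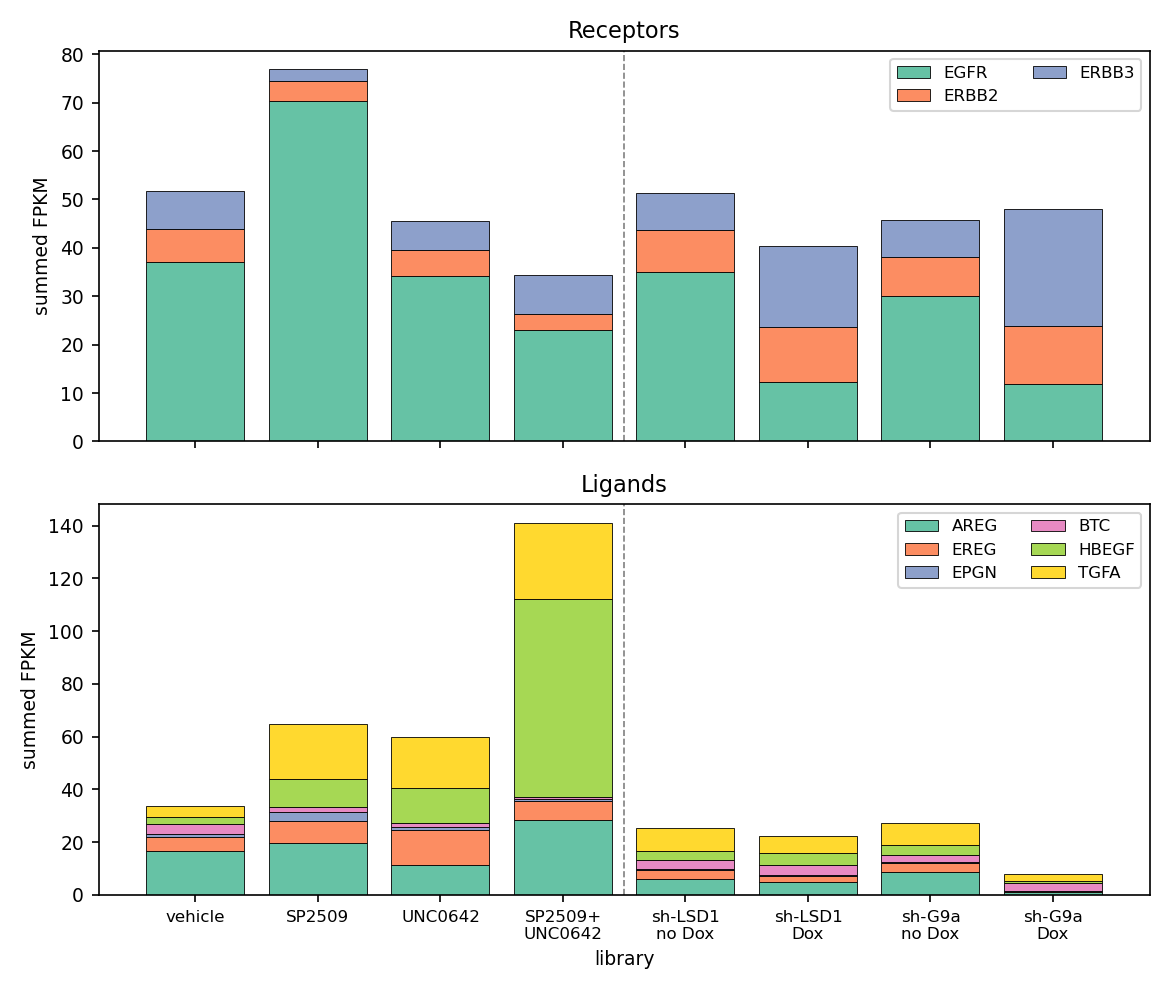
Summed FPKM of the 3 receptors (top) and the 6 ligands (bottom) in each of the 8 libraries, stacked by gene, with the inhibitor table left and the knockdown table right of the dashed line. EGFR makes up 91.4% of the receptor bar with SP2509 and 24.5% in the sh-G9a line with Dox, and the ligand bar runs from 8.10 FPKM in that library to 141 FPKM with both inhibitors.

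Among the ligands, the 250 bases before the RefSeq start of AREG, EREG and HBEGF are shown, because AREG and EREG had the largest falls of all members in the sh-G9a line and HBEGF the largest rise with both inhibitors. They are from RefSeq (GRCh38.p14), 5′ to 3′ on the strand of the gene, and cover chr4:74444886-74445135 (plus strand) for AREG, chr4:74364895-74365144 (plus strand) for EREG and chr5:140346604-140346853 (minus strand) for HBEGF. Capitals mark a cAMP response element (CRE, TGACGTCA) and a TATA box (TATAAA, searched on the strand of the gene). The AP-1 letters TGACTCA were searched on both strands as well.
AREG: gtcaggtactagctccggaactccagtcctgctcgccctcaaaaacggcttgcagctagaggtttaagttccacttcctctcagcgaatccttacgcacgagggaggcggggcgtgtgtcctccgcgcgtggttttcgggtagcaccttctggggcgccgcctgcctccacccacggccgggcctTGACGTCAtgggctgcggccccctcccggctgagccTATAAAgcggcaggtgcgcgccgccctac
EREG: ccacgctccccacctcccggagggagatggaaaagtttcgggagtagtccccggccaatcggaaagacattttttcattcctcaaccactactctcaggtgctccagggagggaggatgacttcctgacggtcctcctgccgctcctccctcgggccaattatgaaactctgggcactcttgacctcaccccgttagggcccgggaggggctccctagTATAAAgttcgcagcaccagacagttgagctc
HBEGF: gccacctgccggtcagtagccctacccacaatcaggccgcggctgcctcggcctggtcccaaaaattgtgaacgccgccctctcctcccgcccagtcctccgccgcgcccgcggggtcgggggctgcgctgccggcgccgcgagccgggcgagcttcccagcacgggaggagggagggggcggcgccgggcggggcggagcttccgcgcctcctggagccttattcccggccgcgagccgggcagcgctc
AREG held the CRE letters 65 bases before the start and the TATA letters 29 bases before it, and EREG the TATA letters 32 bases before it, while HBEGF held none of the 3 motifs. Of the 9 members with a promoter in the RefSeq table, 1 held the CRE letters, against 1.65% of 35116 promoter windows of the same length. The TATA letters were found in 3 (AREG, EREG and EPGN), against 6.8% of all windows, and the AP-1 letters in 0, against 4.2%. The GC content was 65.2% for AREG, 58.0% for EREG and 76.4% for HBEGF, with a median of 58.0% over all windows. A match describes these letters only, and no factor was measured.

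HBEGF (ENSG00000113070, chromosome 5 from 140332843 to 140346631, minus strand) encodes heparin-binding EGF-like growth factor, a ligand of EGFR and ERBB4. It had 2.96 FPKM in vehicle-treated cells, 10.9 under SP2509, 13.1 under UNC0642 and 75.0 under the combination. In the sh-LSD1 line it was at 3.17 FPKM without and 4.39 with Dox, and in the sh-G9a line at 3.51 without and 0.574 with Dox. Every library with an inhibitor lay above vehicle, the combination stood far above both single inhibitors, and the sh-G9a line with Dox was the only library below 1 FPKM. HBEGF rose to 3.69 times vehicle (95% interval 3.06 to 4.47) with SP2509, to 4.43 times (3.69 to 5.35) with UNC0642 and to 25.3 times (21.4 to 30.2) with both, a log2 fold change of 4.26. That last value ranked 16 from the top among the 13907 genes tested in that comparison. In the sh-G9a line HBEGF fell to 0.164 times its control (0.107 to 0.242), on 175 and 30 reads. In the sh-LSD1 line it was not called, at a ratio of 1.38 (1.13 to 1.70).

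TGFA (ENSG00000163235, chromosome 2 from 70447280 to 70554193, minus strand), the gene of transforming growth factor alpha, was called in all 5 comparisons. Its levels were 3.87 FPKM in vehicle-treated cells, 20.6 under SP2509, 19.2 under UNC0642 and 28.8 under the combination, all 3 treated libraries lying well above vehicle. The sh-LSD1 line had 8.89 FPKM without and 6.39 with Dox, and the sh-G9a line 8.45 without and 2.99 with Dox. TGFA rose to 5.32 times vehicle (95% interval 4.70 to 6.03) with SP2509, to 4.96 times (4.38 to 5.62) with UNC0642 and to 7.44 times (6.596 to 8.41) with both. It fell to 0.719 times (0.644 to 0.802) in the sh-LSD1 line and to 0.354 times (0.305 to 0.409) in the sh-G9a line with Dox. The direction was thus up in each inhibitor comparison and down in each knockdown comparison. The controls differed, at 3.87 FPKM with vehicle and 8.89 and 8.45 FPKM in the uninduced lines, and the inhibitor comparisons share that vehicle.

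AREG (ENSG00000109321, chromosome 4 from 74445134 to 74455009, plus strand) encodes amphiregulin and was the most abundant ligand with vehicle. It had 16.6 FPKM in vehicle-treated cells, 19.8 under SP2509, 11.4 under UNC0642 and 28.5 under the combination. The sh-LSD1 line had 6.19 FPKM without and 4.71 with Dox, and the sh-G9a line 8.84 without and 1.02 with Dox. AREG rose with both inhibitors to 1.72 times vehicle (95% interval 1.53 to 1.94), fell with UNC0642 to 0.689 times (0.596 to 0.797), and had a ratio of 1.19 (1.05 to 1.35) with SP2509, under the threshold. With Dox in the sh-G9a line it fell to 0.115 times (0.075 to 0.169), a log2 fold change of -2.29 on 241 and 29 reads. The sh-LSD1 line gave a ratio of 0.762 (0.605 to 0.957), which was not called, although it was called down with a pseudocount of 0.1, with centring and with the mean of the uninduced lines as control. On the (FPKM + 1) scale, AREG was also the only member that differed by at least 1.3 times between the uninduced lines, with an FPKM ratio of sh-G9a to sh-LSD1 of 1.43 (1.17 to 1.74).

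EREG (ENSG00000124882, chromosome 4 from 74365143 to 74388751, plus strand), which encodes epiregulin, had 5.36 FPKM in vehicle-treated cells, 8.23 under SP2509, 13.1 under UNC0642 and 7.04 under the combination. In the sh-LSD1 line it had 3.18 FPKM without and 2.49 with Dox, and in the sh-G9a line 3.28 without and 0.323 with Dox. UNC0642 alone was the high library, the combination lay below both single inhibitors, and the sh-G9a line with Dox was the low library. EREG rose with SP2509 to 1.54 times vehicle (95% interval 1.37 to 1.72) and with UNC0642 to 2.44 times (2.20 to 2.71). With both inhibitors the ratio was 1.31 (1.17 to 1.48) and fell short of a call on the (FPKM + 1) scale. It fell to 0.0986 times (0.0663 to 0.142) in the sh-G9a line, on 310 and 32 reads, the smallest ratio of any member in any of the 5 comparisons.

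BTC (ENSG00000174808, chromosome 4 from 74744759 to 74794686, minus strand), which encodes betacellulin, was the only ligand that was lower than vehicle with each inhibitor. Its levels were 3.54 FPKM in vehicle-treated cells, 1.56 under SP2509, 1.77 under UNC0642 and 0.905 under the combination. In the lines it was at 3.56 FPKM without and 4.04 with Dox for sh-LSD1, and at 2.77 without and 3.03 with Dox for sh-G9a. BTC fell to 0.440 times vehicle (95% interval 0.331 to 0.581) with SP2509, to 0.4995 times (0.381 to 0.652) with UNC0642 and to 0.256 times (0.178 to 0.360) with both. Neither Dox comparison called it, with ratios of 1.13 (0.922 to 1.396) and 1.10 (0.859 to 1.398). In the sh-G9a line with Dox, BTC and TGFA stood nearly level as the most abundant ligands, at 3.03 and 2.99 FPKM.

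EPGN (ENSG00000182585, chromosome 4 from 74308473 to 74315307, plus strand), which encodes epigen, was low throughout. It had 1.23 FPKM in vehicle-treated cells, 3.62 under SP2509, 1.11 under UNC0642 and 0.751 under the combination, and between 0.159 and 0.497 FPKM in the 4 knockdown libraries, where it did not reach the filter. EPGN rose with SP2509 to 2.94 times vehicle (95% interval 2.00 to 4.42), on 35 and 117 reads. In the knockdown libraries it had 16 reads at most, and the intervals of both ratios, 0.188 to 1.26 and 0.118 to 1.355, held 1, so no difference was detectable at this depth.

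LRIG1 (ENSG00000144749, chromosome 3 from 66378797 to 66501263, minus strand), the gene of the receptor inhibitor, had 2.61 FPKM in vehicle-treated cells, 1.15 under SP2509, 2.27 under UNC0642 and 2.43 under the combination. The sh-LSD1 line had 2.39 FPKM without and 3.74 with Dox, and the sh-G9a line 2.27 without and 2.29 with Dox. SP2509 alone was the low library and the sh-LSD1 line with Dox the high one. LRIG1 fell with SP2509 to 0.440 times vehicle (95% interval 0.358 to 0.539) and rose in the sh-LSD1 line to 1.57 times (1.35 to 1.82), a call that ended once ratios were centred on the median. The ratios in the other 3 comparisons were 0.866 (0.733 to 1.02) with UNC0642, 0.928 (0.785 to 1.10) with both inhibitors and 1.01 (0.850 to 1.20) in the sh-G9a line. The reads of LRIG1 in the inhibitor libraries were taken at 7032 bases, the length recovered for the knockdowns. At 2344 bases, the smallest length with whole reads in the inhibitor libraries, the interval with SP2509 was 0.304 to 0.628. SLC25A26 overlaps LRIG1 on the other strand and was at 2.19 to 3.20 FPKM.

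**Figure D3:**
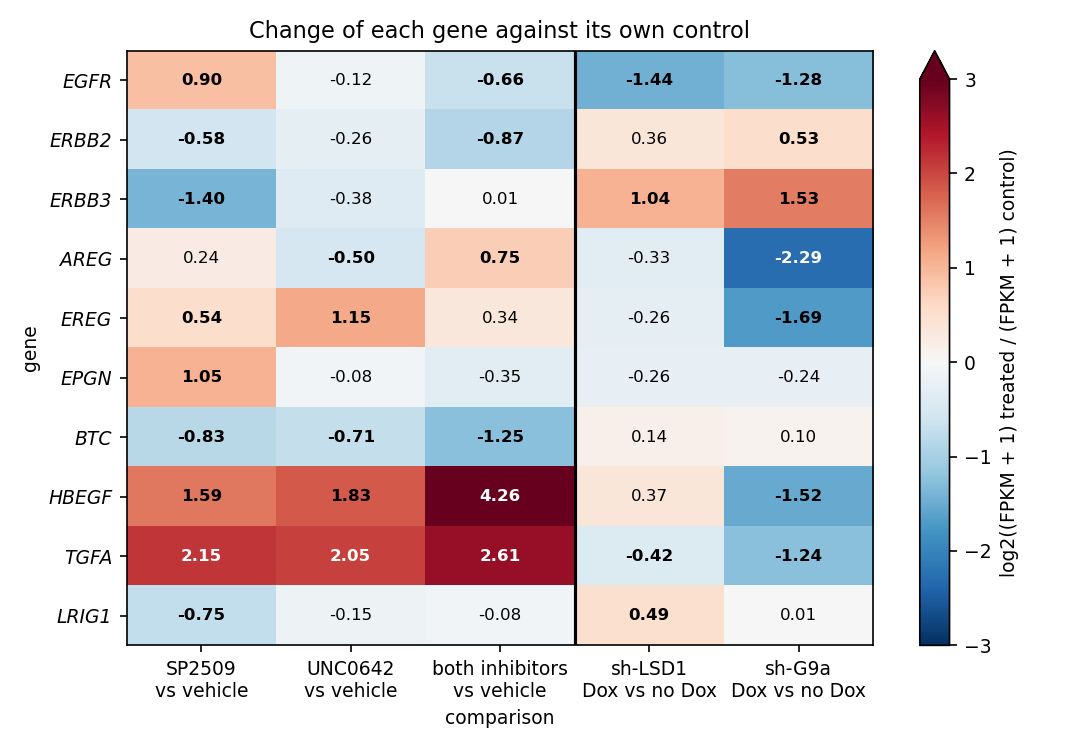
Log2 fold change, treated library against its control after adding 1 to each FPKM, for the 10 genes (rows) in the 5 comparisons (columns), with called values in bold and the colour scale ending at 3. HBEGF and TGFA are positive in the 3 inhibitor columns, and EGFR and TGFA are negative and ERBB3 positive in both knockdown columns.

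In the SP2509 comparison, the inhibitor was accompanied by 5 members called up (EGFR, EREG, EPGN, HBEGF and TGFA) and 4 called down (ERBB2, ERBB3, BTC and LRIG1) of 10 tested, where 21.0% of all 13342 genes tested were called up and 39.9% down. Past a fold of 2, 3 members were up and 1 was down, against 8.25% and 13.0% of all genes. UNC0642 gave 3 up (EREG, HBEGF and TGFA) and 2 down (AREG and BTC), all 3 of the former past a fold of 2, against 18.2% up and 16.9% down at 1.3-fold and 4.79% up and 3.12% down at 2-fold among 13244 genes. No receptor was called with UNC0642, although the intervals of all 3 ratios lay below 1. Both inhibitors together gave 3 up (AREG, HBEGF and TGFA) and 3 down (EGFR, ERBB2 and BTC), shares close to the 31.4% and 31.7% of 13907 genes called up and down. Past a fold of 2, 2 members were up and 1 (BTC) was down, where 13.0% and 9.57% of the genes were. In size, HBEGF and TGFA ranked 16 and 155 from the top of those genes.

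Dox in the sh-LSD1 line called 2 of 9 members tested up (ERBB3 and LRIG1) and 2 down (EGFR and TGFA), where 24.8% of 12970 genes were up and 12.3% down. Past a fold of 2, 1 was up (ERBB3) and 1 down (EGFR), as were 3.36% and 3.27% of the genes. In the sh-G9a line 2 of 9 were up (ERBB2 and ERBB3) and 5 down (EGFR, AREG, EREG, HBEGF and TGFA), where 32.9% of 13080 genes were up and 17.6% down. All 5 of the latter were past a fold of 2, as were 6.02% of all genes, and of the former ERBB3 was, as were 5.13%. Over the 9 members tested in the sh-G9a line the median log2 fold change was -1.24, beside 0.18 over all genes tested. The other medians over the members were 0.39 with SP2509, -0.13 with UNC0642, -0.03 with both inhibitors and 0.14 in the sh-LSD1 line, beside -0.21, -0.01, -0.02 and 0.13 over all genes. EPGN is missing from the medians of both lines.

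**Figure D4:**
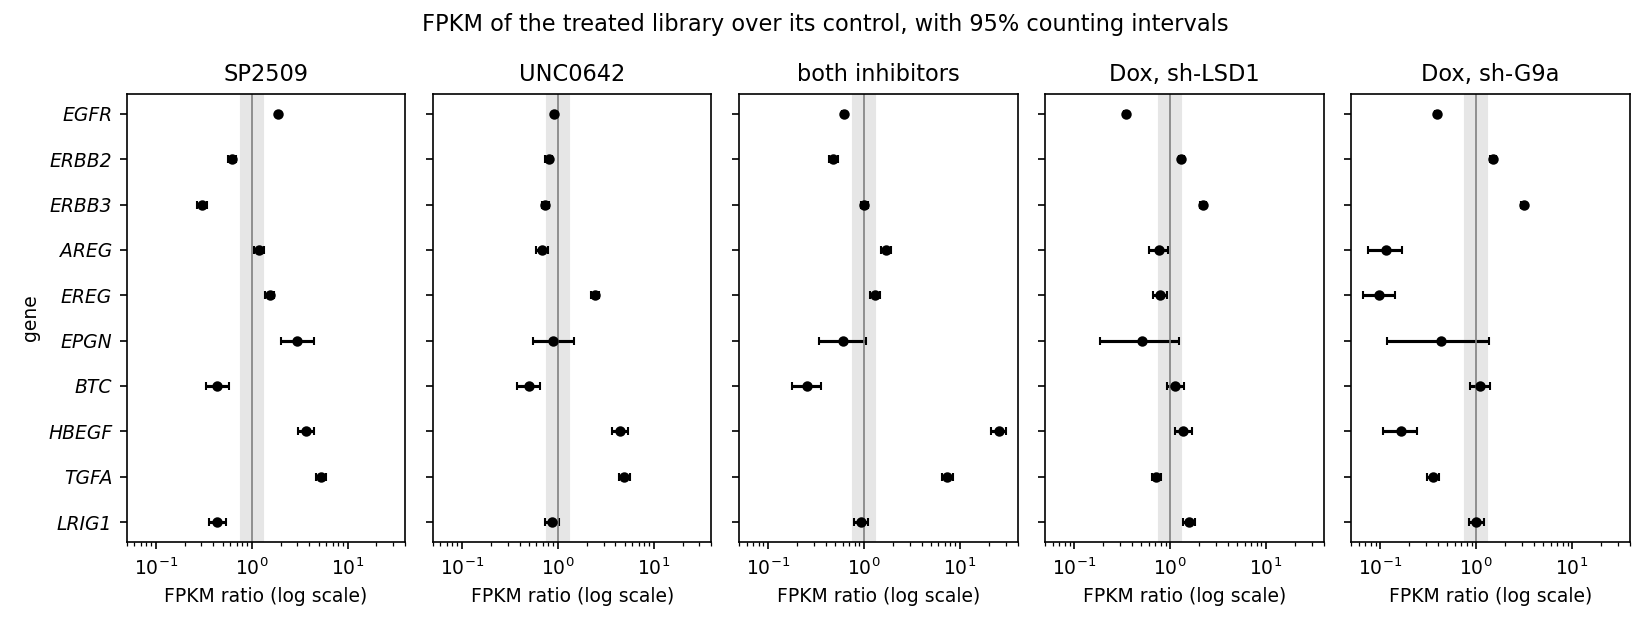
FPKM ratio of the treated library to its control (log axis) for the 10 genes in the 5 comparisons, with exact 95% intervals from the reads as bars, and the span between 1.3 times lower and 1.3 times higher shaded. The interval is widest for EPGN, with 16 reads at most in the knockdown libraries, and HBEGF with both inhibitors lies farthest right at 25.3.

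The inhibitor of an enzyme and its knockdown were then set side by side for each member. For LSD1, 0 of 9 members tested in both comparisons were called in the same direction with SP2509 and in the sh-LSD1 line, and 4 (EGFR, ERBB3, TGFA and LRIG1) were called in opposite directions, where 4.61% of 11769 genes shared a direction and 20.4% were opposite. For G9a, 1 member (AREG, down) shared a direction between UNC0642 and the sh-G9a line and 3 (EREG, HBEGF and TGFA) were opposite, where 8.80% of 11906 genes shared a direction and 10.1% were opposite. These pairs of comparisons use separate controls, 1 library each. The controls differed for some members, TGFA being at 3.87 FPKM with vehicle and at 8.89 and 8.45 FPKM in the uninduced lines.

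The uninduced lines give a yardstick for differences between libraries of like cells, although they carry different hairpins and are not replicates. Over the 10 members, the median absolute log2 difference between them was 0.10, the same as over the 12449 genes at 1 FPKM or more, and 1 member (AREG) was past 1.3-fold on the (FPKM + 1) scale, as were 7.55% of those genes. The correlation of log2 (FPKM + 1) between the uninduced lines over 13725 genes was 0.988, beside 0.95 and 0.919 between each line without and with Dox, values across genes that are not independent. The Dox changes of EGFR (-1.44 and -1.28) and ERBB3 (1.04 and 1.53) were larger than their differences between the uninduced lines, which were -0.22 and 0.02 on the log2 scale. For AREG, the change of -0.33 in the sh-LSD1 line was smaller than the difference of 0.45 between the uninduced lines.

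Several members behaved differently with both inhibitors than with either alone. HBEGF had 6.87 times (95% interval 6.30 to 7.51) its SP2509 level and 5.72 times (5.28 to 6.21) its UNC0642 level with both. The sum of its log2 fold changes with the single inhibitors was 3.42, and the combination gave 4.26. TGFA, in contrast, reached a log2 fold change of 2.61 where the single values sum to 4.199, and EREG 0.34 where they sum to 1.68. EGFR, which was higher with SP2509 and about level with UNC0642, had 0.328 times (0.317 to 0.339) its SP2509 level with both inhibitors, so that its log2 fold change of -0.66 stood 1.45 below the sum of 0.79. ERBB3 had 3.33 times (2.96 to 3.76) its SP2509 level and returned to the level of vehicle, with a log2 fold change 1.78 above the sum. ERBB2 had -0.87 with both inhibitors, beside a sum of -0.845. Over the 14801 genes at 1 FPKM or more in at least 1 inhibitor library, the departure from the sum had a median of 0.19, and 5% of them lay below -1.41 and 5% above 1.64. EGFR, TGFA and ERBB3 lay outside that range. These departures rest on 4 libraries that share 1 vehicle. The doses within the combination are not given, so a departure from the sum cannot be told apart from a difference in dose.

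**Figure D5:**
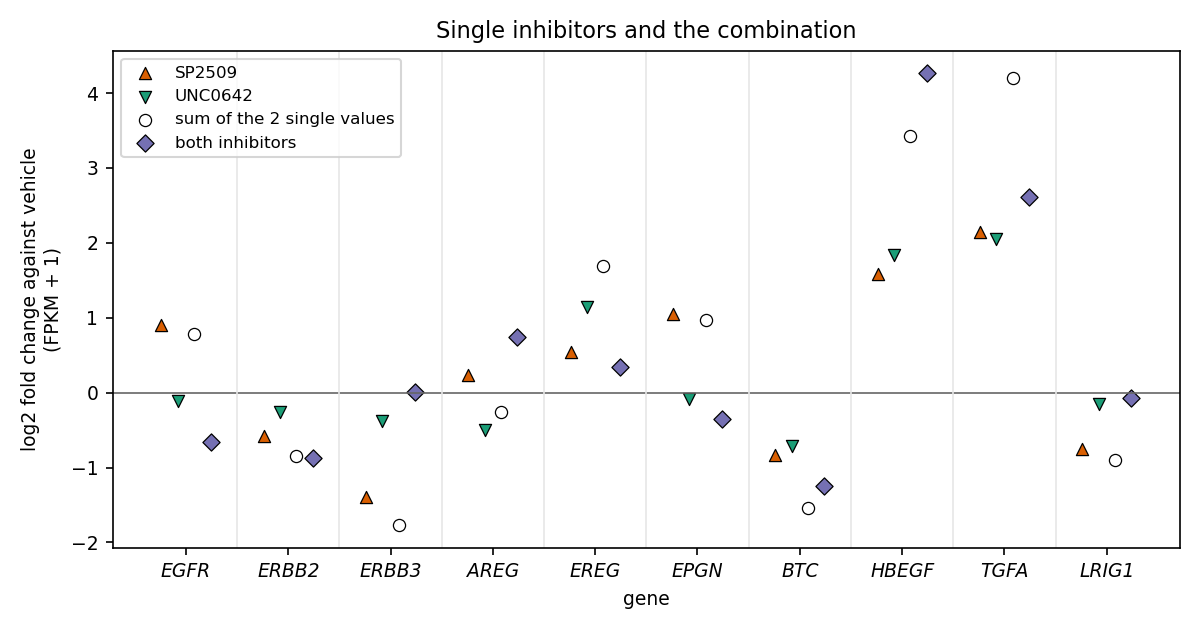
Log2 fold change against vehicle, on the (FPKM + 1) scale, of the 10 genes with SP2509, with UNC0642 and with both, and the sum of the values with the single inhibitors (open circles), 1 library per condition. The combination lies above the sum for HBEGF (4.26 and 3.42) and ERBB3 (0.01 and -1.77). It lies below the sum for TGFA (2.61 and 4.199) and EGFR (-0.66 and 0.79). The doses within the combination are not given.

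Within the inhibitor libraries and within the knockdown libraries, the summed ligand level ranged more widely than the receptor sum. It was 33.5 FPKM in vehicle-treated cells, 64.7 under SP2509, 59.7 under UNC0642 and 141 under the combination, and went from 25.5 to 22.3 FPKM with Dox in the sh-LSD1 line and from 27.2 to 8.10 FPKM in the sh-G9a line. The leading ligand was AREG with vehicle (49.4% of the sum), TGFA with UNC0642 (32.2%) and HBEGF with both inhibitors (53.2%). With SP2509, TGFA (31.8%) and AREG (30.6%) were nearly level. In the sh-LSD1 line TGFA led without (34.9%) and with (28.7%) Dox. In the sh-G9a line AREG (32.5%) and TGFA (31.1%) were nearly level without Dox. BTC (37.5%) and TGFA (36.9%) were nearly level with Dox, where AREG, EREG, HBEGF and TGFA fell and BTC was not called.

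EPGN, EREG, AREG and BTC lie within 486 kb of each other on chromosome 4, and their values differed along that stretch. Within 300 kb of the cluster, 14 genes were listed and 10 of them, the 4 ligands included, reached 1 FPKM in at least 1 library. In the sh-G9a line with Dox, EREG and AREG had log2 fold changes of -1.69 and -2.29, whereas BTC, farther along, had 0.10. On the other side of EPGN, the chemokine genes CXCL2 and CXCL3 had -2.08 and -0.98, CXCL3 from a low level (1.28 to 0.156 FPKM). MTHFD2L, a folate enzyme gene that lies between them and EPGN, had 0.07. It was below the filter in both libraries of this line, at 0.690 and 0.776 FPKM. Beyond BTC, PARM1 had -0.72 and the noncoding genes AC110760.1 and LINC02562 had 0.79 and 0.85. AC110760.1 was low, at 0.205 FPKM without and 1.08 FPKM with Dox in the sh-G9a line. With both inhibitors CXCL2 and CXCL3 had -3.22 and -2.23 while AREG had 0.75. AC110760.1 is antisense to PARM1, so their reads may be mixed.

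Other genes of the pathway were taken from lists drawn up by function. The counts of each list stand beside the shares of all genes tested. Of all genes, 21.0% were up and 39.9% down with SP2509, 18.2% and 16.9% with UNC0642, and 31.4% and 31.7% with both inhibitors. With Dox, 24.8% and 12.3% were so called in the sh-LSD1 line and 32.9% and 17.6% in the sh-G9a line. Of 6 further ErbB receptor and ligand genes, ERBB4 was at or below 0.0878 FPKM in all 8 libraries. The list gave 1 call up of 1 gene tested with SP2509, 2 up of 3 with UNC0642, 1 down of 2 with both inhibitors, and 2 down of 2 in each line with Dox. NRG1, which encodes a neuregulin that binds ERBB3, rose from 6.45 to 16.9 FPKM with SP2509 and fell to 4.54 FPKM with both inhibitors. It fell from 2.46 to 1.14 FPKM in the sh-LSD1 line and from 2.67 to 0.805 FPKM in the sh-G9a line with Dox. NRG4 fell in both lines as well, by 0.79 and 0.88 on the log2 scale.

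Of 8 genes of ligand shedding, 4 were up and 1 was down with SP2509, 2 and 0 with UNC0642, 1 and 0 with both inhibitors, 2 and 1 in the sh-LSD1 line and 0 and 3 in the sh-G9a line. The shares over all genes are those given above for the first list. ADAM12, a metalloprotease that can release HBEGF, was called in all 5 comparisons. Its log2 fold changes were 0.60, 1.37 and 1.19 in the inhibitor comparisons and -0.58 and -0.76 in the sh-LSD1 and sh-G9a lines. ADAM12 was low, at 1.54 FPKM with vehicle. With Dox it went from 1.34 to 0.562 FPKM in the sh-LSD1 line and from 1.29 to 0.351 FPKM in the sh-G9a line. In the lines it thus passed the filter only through the library without Dox.

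Among 14 negative regulators and trafficking genes, 3 were up and 4 down with SP2509, 2 and 4 with UNC0642, 5 and 2 with both inhibitors, 1 and 2 in the sh-LSD1 line and 2 and 4 in the sh-G9a line. These counts stand beside the shares of all genes given above for the first list. The largest values belonged to ERRFI1, which encodes MIG6, a feedback inhibitor that binds the EGFR kinase. It rose from 30.1 FPKM with vehicle to 170 with SP2509, 89.2 with UNC0642 and 142 with both. With Dox it fell from 105 to 9.54 FPKM in the sh-LSD1 line and from 96.3 to 5.30 FPKM in the sh-G9a line, log2 fold changes of -3.33 and -3.95. LRIG3, a relative of LRIG1, fell in each inhibitor comparison (-0.38, -0.82 and -1.52) and rose in the sh-G9a line (0.62). CBLC, a ubiquitin ligase gene, rose with SP2509 (0.84) and fell with both inhibitors (-1.15) and in both lines (-0.42 and -0.57).

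Of 20 adaptors and transducers, 4 were up and 5 down with SP2509, 3 and 3 with UNC0642, 3 and 6 with both inhibitors, 4 and 1 in the sh-LSD1 line and 3 and 2 in the sh-G9a line. The medians of this list were 0.02, 0.05, -0.17, 0.12 and 0.17, in the same order. Over all genes tested the medians were -0.21, -0.01, -0.02, 0.13 and 0.18, and the shares called are those given above for the first list. SOS1, the exchange factor that activates RAS, fell in each inhibitor comparison (-1.53, -0.52 and -0.72) and rose in both lines (0.40 and 0.76). MAP2K1, the kinase MEK1, rose in each inhibitor comparison (0.63, 0.69 and 1.75) and fell in the sh-G9a line (-0.65).

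The genes nearest to 3 members in their 5 log2 fold changes, by root mean square difference among the 11376 genes tested in all 5 comparisons, were PRELID2 (0.25), ELMSAN1 (0.30) and NAV2 (0.31) for EGFR. For AREG they were LAMP3 (0.35), UNC5B-AS1 (0.40) and ARG2 (0.40), and for LRIG1 they were NRF1 (0.04), C8orf33 (0.07) and DCUN1D5 (0.08). The 3 inhibitor comparisons share the vehicle library, so these distances rest on fewer than 5 independent values.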

How the data were processed

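The authors discarded reads of poor quality and contaminating reads, placed the remainder on GRCh38, and deposited an FPKM value per gene and library in 2 tables, with 31582 genes for the inhibitors and 28942 for the knockdowns. The aligner, the counting tool and the strand setting are not given in the sources used here. The tables also hold gene descriptions, which were not used beyond name, type and position.

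Reads were recovered from the FPKM values. Genes with 1 exon in GENCODE gave each library total, and the smallest length that gave whole reads (within 0.001 plus rounding) in all 4 libraries of a table was taken for every gene, or a multiple of it up to 4 that equalled the GENCODE length or that of the other table. The procedure was tested on simulated data. Recovered reads made up 99.6% to 99.8% of the totals.

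Each treated library was compared with its own control, using a pseudocount of 1, a minimum of 1 FPKM and a fold of 1.3, the fold in the study's methods. Ratios have exact Clopper-Pearson intervals (scipy 1.17.1). All 10 members are named. Of each pathway list, genes called in at least 3 comparisons, or with the 2 largest changes, could be named, together with expressed neighbours of the ligand cluster and the 3 genes nearest in pattern to EGFR, AREG and LRIG1. ERBB4 was added after its values were seen. Members, lists, motifs and tests were chosen with earlier results of these data known.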

Additional observations from a re-analysis of the deposited data

Results flagged for a closer look

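Some members changed one way when an inhibitor was added to vehicle and the opposite way when it was added to the other inhibitor, in 1 library per condition, and the difference between these changes was not tested. EGFR had a log2 fold change of 0.90 when SP2509 was added to vehicle and of -0.55 when it was added to UNC0642. ERBB3 changed by -1.40 and 0.38 in the same comparisons, and EREG by 0.54 and -0.81. AREG changed by -0.50 when UNC0642 was added to vehicle and by 0.51 when it was added to SP2509. ERBB3 changed by -0.38, which was not called, and by 1.40 in these same comparisons. The share of all genes with such a reversal is not given here. The departure from the sum lay within the range of -1.41 to 1.64 over all genes for EREG (-1.35) and AREG (1.01). It lay outside that range for EGFR and ERBB3. The doses within the combination are not given, so a difference in dose cannot be told apart from these patterns.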

How the results depend on the processing

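No called value of a member in the lines changed sign with the mean of the uninduced lines as control. The other settings could not reverse a called value. A pseudocount of 0.1 cannot change a sign. Ratios centred on the median moved a log2 fold change by 0.14 at most, where a call needs 0.38. The counts of members called stayed the same without a filter on low values and with an added requirement of an exact binomial p under 0.05 on the reads. These checks had little room to move the counts. The filter left out only EPGN in the lines, and its log2 fold changes of -0.26 and -0.24 missed the fold. The binomial p covers counting error only. A fold of 2 left 3 members up and 1 down with SP2509, 0 down with UNC0642, 1 down with both inhibitors, 1 up and 1 down in the sh-LSD1 line and 1 up in the sh-G9a line. A minimum of 5 FPKM left 2 down with SP2509 (without BTC and LRIG1), 1 down with UNC0642, 1 up in the sh-LSD1 line, and 3 down in the sh-G9a line (without EREG and HBEGF), since low genes are not tested there. It also lost EPGN from the members up with SP2509 and BTC from those down with both inhibitors. With a pseudocount of 0.1, 4 members were up in the sh-LSD1 line, ERBB2 and HBEGF being added, and with centring 1 was up, LRIG1 being lost. AREG was called down in the sh-LSD1 line with that pseudocount, with centring and with the mean of the uninduced lines as control. That control also added ERBB2 up in this line. The pseudocount of 0.1 added ERBB3 down with UNC0642, and EREG up and EPGN down with both inhibitors, the latter also with centring. A fold of 2 also lost AREG up with both inhibitors. No paired analysis was possible because each condition has 1 library. Depth limits EPGN in the knockdown libraries, and the single library per condition limits every comparison.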
